A study of Homo sapiens with 24 samples.

Results

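The genes described here are the nuclear tRNA genes for the branched-chain amino acids leucine, isoleucine and valine. They were taken by name: every tRNA feature outside the mitochondrial chromosome whose first annotated name begins with tRNA-Leu, tRNA-Ile or tRNA-Val, together with the accessibility window on the same feature. There were 92 of them among 756 nuclear tRNA features and 175946 annotated features in all, namely 34 for leucine, 23 for isoleucine and 35 for valine. The cells were HEK293, a human embryonic kidney line with a wild-type genotype label, overexpressing eGFP (the control, called GFP below) or 1 of the lamins LMNA, LMNB1 and LMNB2. Sequencing of small RNA, from an RNA fraction enriched for it, and of open chromatin cut by a transposase (ATAC-seq) was run each on 3 replicates per group, giving 24 libraries. All groups therefore carry an overexpressed protein on top of the endogenous lamins, and no untreated group was used here. The labels do not say whether replicates were separate cultures, so the p-values measure only the spread between these samples, which may be technical.

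Lamins form the meshwork that lines the inside of the nuclear membrane and touches chromatin there: LMNA encodes the A-type lamins, and LMNB1 and LMNB2 encode the B-type lamins. tRNA genes are transcribed by RNA polymerase III from a promoter inside the gene, made of an A box and a B box that TFIIIC binds. The transcript is trimmed at both ends, spliced where it holds an intron, and charged by the synthetase of its amino acid. Leucine tRNAs belong to the type II tRNAs, with a long variable arm. Isoleucine and valine tRNAs are type I, with a short one. Among the genes described here, introns are known in tRNA-Leu-CAA and tRNA-Ile-TAT genes.

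The following genes are shown because only they lay in full within RefSeq promoter windows of neighbouring genes. No full sequence of the other genes was at hand. The genes shown lie in the extended tRNA cluster of chromosome 6. They are RefSeq GRCh38.p14 sequence on the transcribed strand, with the anticodon and the B box (searched as GTTCGANNC on that strand) in capitals. TRI-TAT2-2 lies at chr6:27020346-27020439 on the plus strand, and its intron follows the anticodon. TRI-AAT8-1 lies at chr6:27668583-27668656 on the plus strand and has no intron. TRL-AAG2-2 lies at chr6:28943622-28943703 on the minus strand, and its long variable arm lies before the B box.
TRI-TAT2-2: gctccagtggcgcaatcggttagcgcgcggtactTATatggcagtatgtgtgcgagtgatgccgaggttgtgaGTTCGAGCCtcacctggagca
TRI-AAT8-1: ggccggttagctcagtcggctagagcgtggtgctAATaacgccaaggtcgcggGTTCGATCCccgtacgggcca
TRL-AAG2-2: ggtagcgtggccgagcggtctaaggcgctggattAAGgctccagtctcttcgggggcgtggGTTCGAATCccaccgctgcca
The same letters occur on either strand in 291 of 35116 RefSeq promoter windows of 300 bases (0.829%), and a match is only a description. For TRL-AAG2-4, the last 63 bases of the gene (chr16:22297159-22297221, plus strand) were in a window, and 0 of them differ from the end of TRL-AAG2-2.
TRL-AAG2-4: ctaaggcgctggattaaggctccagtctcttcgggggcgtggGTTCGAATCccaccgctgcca
Such copies cannot be separated by reads that lie within the shared bases, and how the authors assigned those reads is not given in the sources used here. Values of single genes with near-identical copies are therefore uncertain, and several such genes in 1 family are not independent observations.

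Small RNA libraries held 132507051 to 195074742 counts and ATAC libraries 156043245 to 290158229. Levels are in CPM, the count relative to the TMM-scaled library size in the usual unit of edgeR. Marker features near the overexpressed genes followed the labels: in small RNA, MIR7108 reached 17.4 to 19.8 CPM in LMNB2 libraries for its first entry and at most 0.0367 CPM elsewhere, and an entry of LMNB1-DT reached 17.6 to 19.3 CPM in LMNB1 libraries and at most 0.426 CPM elsewhere. Of the 6 LMNB1-DT entries, 2 were raised in this way, and the 4 others were at most 0.118 CPM in every library. lnc-SEMA4A-1 checked LMNA in ATAC (3743 to 5332 CPM against at most 16.5), and no feature checked it in small RNA, where lnc-MEX3A-1 lay between 0.0169 and 0.107 CPM in all groups. Of 9 miRNA precursors that mark other cell types, each was at most 0.0588 CPM and 1 was at 0 in every library. Their summed level was 0.0258 to 0.0661 CPM in GFP, 0.0373 to 0.0819 in LMNA, 0.0122 to 0.0604 in LMNB1 and 0.0256 to 0.0422 in LMNB2. The 6 precursors usual in proliferating epithelial lines lay between 1.29 and 218 CPM.

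The GFP libraries of the small RNA assay stood apart from each other. Among the 87 tested genes, the highest GFP library was a median 2.45 times the lowest, against 1.51 times in LMNA, 1.37 in LMNB1 and 1.39 in LMNB2. GFP replicate 3 was the highest of the GFP libraries for 61 of the 87 genes, and GFP replicate 2 was the lowest for 76. The spread was widest for valine genes, at a median 7.08 times, and GFP replicate 3 was highest for 28 of 34 of them. The TMM factors of the GFP libraries ran from 0.631 to 1.31. Small RNA comparisons against GFP rest on these libraries, as does the pooled spread behind the other comparisons, so both are also given without them where that changes a count.

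**Figure D1:**
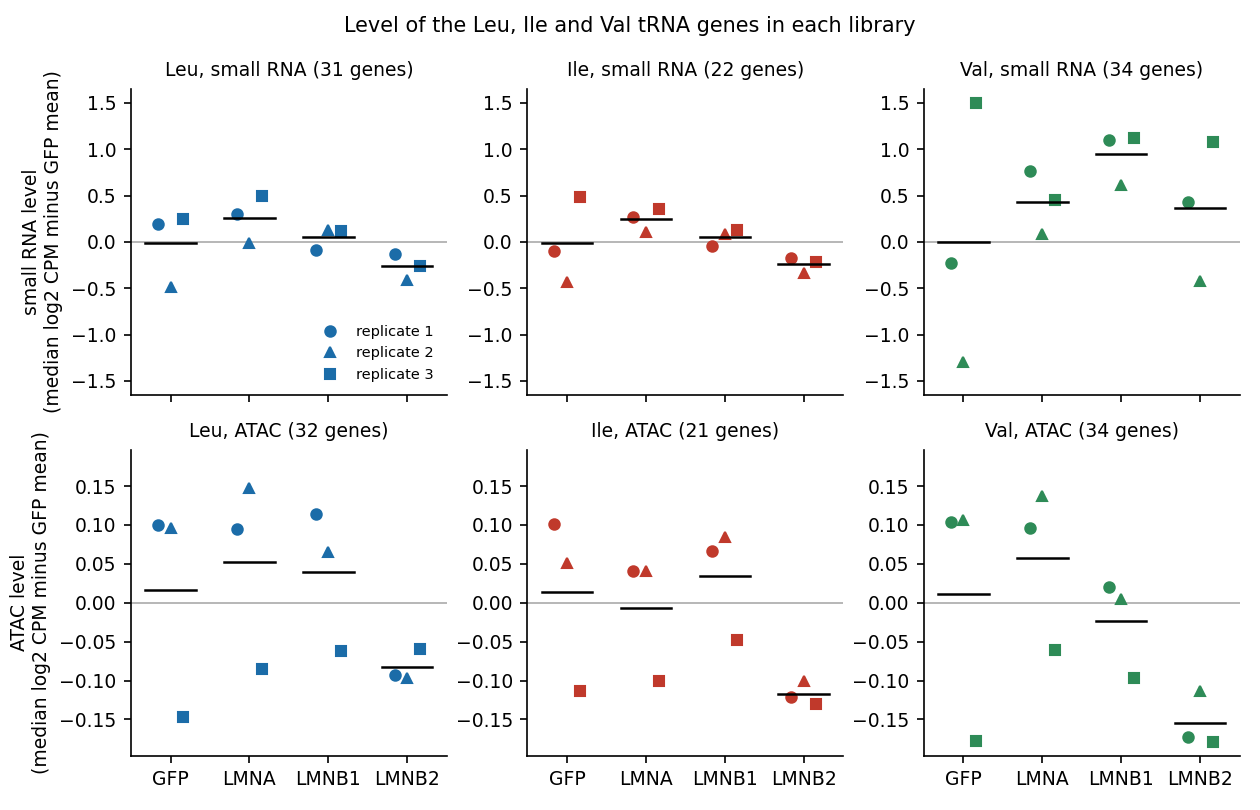
Level of the leucine, isoleucine and valine genes in each library, as the median over tested genes of log2 CPM minus the gene's GFP mean, in small RNA and ATAC (circle, triangle and square for replicates 1, 2 and 3, black bar for the mean of 3). In small RNA the valine genes spread from -1.29 to 1.5 within GFP, and the leucine genes of the 3 LMNB2 libraries lie between -0.41 and -0.13.

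Small RNA levels in CPM per kb differed over 5.53 orders of magnitude between the genes with any count. Of the 92 genes, 87 averaged 10 or more counts in a library, 43 averaged 1000 or more and 5 averaged 10000 or more, and 1 (tRNA-Leu-AAG-5-1) had no count. Leucine genes held 56.9% of the summed CPM of the 92, valine genes 40.2% and isoleucine genes 2.92%. TRL-TAG1-1, a leucine gene at chr17:8120314-8120395 (minus strand), alone held 40.1%. Its level was 6209 CPM per kb, the highest of all. It measured 1127, 356 and 364 CPM with GFP, 1108, 1011 and 1018 with LMNA, 627, 940 and 615 with LMNB1, and 986, 830 and 853 with LMNB2. The GFP values of this gene span those of every other group, and GFP replicate 1 is the highest of the 12 libraries.

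Per kb, the family medians in small RNA were highest for Val-AAC (201 CPM per kb), Val-CAC (142), Leu-CAA (95.9) and Val-TAC (95.6). They were followed by Leu-TAG (62.2), Leu-AAG, Leu-TAA (17.8), Ile-TAT (10.1), Ile-AAT (10.0) and Leu-CAG (3.42), and were lowest for Ile-GAT (0.539). ATAC gave another order: Ile-TAT windows were highest (12 CPM per kb), then Leu-CAG (9.28), Leu-AAG (9.09) and Leu-CAA (7.66), with Val-CAC (2.56) and Ile-GAT (0.0206) at the bottom. The window of TRI-TAT1-1, an isoleucine gene with an intron at chr19:39412168-39412260 (minus strand), was the most accessible at 25.2 CPM per kb, followed by TRL-CAG2-2 (23.2), TRI-AAT5-5 (22.3) and TRL-TAA1-1 (21.0). Across the 92 genes the Spearman correlation of small RNA with ATAC level per kb was 0.43. It was 0.85 over 23 isoleucine, 0.47 over 35 valine and 0.46 over 34 leucine genes, which share libraries, and near-identical copies within a family.

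**Figure D2:**
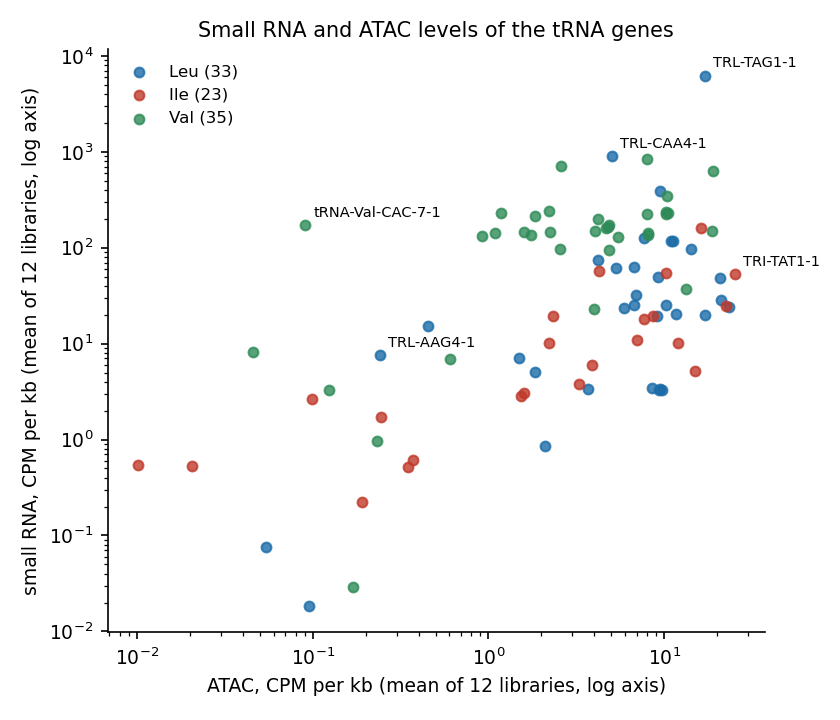
Mean small RNA level against mean ATAC level of each gene, both in CPM per kb on log axes, coloured by amino acid. 91 genes are drawn, since 1 has no small RNA count, and the highest small RNA value, 6209 CPM per kb, is TRL-TAG1-1.

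The accessibility of a gene was also set against its own surroundings, as counts per bp in the window on the gene over those in its flanks of 5000 bp per side. For 71 of the 92 genes this ratio was over 2, and the median was 5.43. The other named isotypes had 338 of 407 genes over 2 and a median of 7.38. Ratios were highest in Val-TAC (up to 148), Leu-TAA (up to 71.6) and Ile-TAT (up to 59.0). The 21 genes at or under 2 (7 leucine, 5 isoleucine and 9 valine) had a median small RNA level of 3.39 CPM per kb, against 57.3 for the 71 others. Among those 21, 4 valine genes nevertheless had a mean of over 1000 small RNA counts: tRNA-Val-CAC-7-1 (ratio 0.658, 3320 counts), TRV-AAC1-1 (1.57, 4597 counts), TRV-AAC4-1 (1.61, 2607 counts) and TRV-AAC1-2 (1.66, 4200 counts). These were chosen after their values were seen, and reads of near-identical valine copies cannot be told apart from their own.

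Copies of 1 name did not always share a level. The 7 loci named tRNA-Leu-CAG-1-1 had mean counts from 70.3 to 1548, a ratio of 22, and the 5 loci of tRNA-Ile-AAT-3-7 differed by a ratio of 14.1. The 4 loci of tRNA-Leu-AAG-2-4, which include both TRL-AAG2 genes printed above, differed by 1.30 times, and the 8 loci of tRNA-Val-CAC-1-4 by 1.70 times.

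The question put to each pair of groups was whether overexpression of a lamin goes with another level of these small RNAs or another accessibility of their genes. The 3 comparisons with GFP share the GFP libraries, and those that involve LMNB2 share the LMNB2 libraries, so they are not independent of each other. Fewer cells and less RNA per cell cannot be told apart in these bulk libraries. Features were called at an adjusted p under 0.05 in edgeR's quasi-likelihood test, fitted on all 12 libraries of an assay and adjusted over all tested features by the Benjamini-Hochberg method.

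In the median, leucine and isoleucine small RNAs were lower in LMNB2 cells than in each other group, and the largest median difference was from LMNA cells. All 31 tested leucine genes and 21 of 22 tested isoleucine genes had a lower fitted level in LMNB2 than in LMNA, with median log2 fold changes of -0.53 and -0.54. The 34 tested valine genes were centred on 0.03, with 20 of them above 0, where 49.4% of all features were. With 1 library left out the valine median ranged from -0.40 (without LMNB2 replicate 3) to 0.31 (without LMNB2 replicate 2), and was -0.16 without LMNA replicate 2, while the leucine median stayed between -0.67 and -0.42 and the isoleucine median between -0.62 and -0.48. Over the 87 genes the median was -0.45, against -0.01 over all 33893 tested features. Only 1 of the 87 passed the test, TRL-AAG4-1, where 2.01% of all features were called in either direction. The groups did not overlap for 46 genes with all 3 LMNB2 libraries below all 3 LMNA libraries (20 leucine, 17 isoleucine and 9 valine), and for 1 gene the other way. Over all tested features these shares were 13.5% lower and 14.6% higher. At an unadjusted p under 0.05, 26 of the 87 genes were lower in LMNB2 and 0 higher, against 6.65% and 9.8% of all features.

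TRL-AAG4-1 is a leucine gene at chr6:28478623-28478704 (minus strand) that RefSeq also lists as overlapping the pseudogene entry TRNAL47P. Another locus, TRL-AAG3-1, carries the same deposited name, tRNA-Leu-AAG-4-1, so reads of the 2 loci may not be separable. TRL-AAG4-1 was also among the 21 genes whose ATAC ratio of window to flanks was at or under 2, at 0.453. It measured 1.05, 0.867 and 1.1 CPM with GFP, 1.44, 1.03 and 1.08 with LMNA, 0.996, 1.13 and 1.22 with LMNB1, and 0.687, 0.748 and 0.590 with LMNB2. The 3 LMNB2 libraries are the lowest of the 12 and overlap with no other group. Against LMNA it fell by 0.81 ± 0.18 (log2, SE; adjusted p = 0.0258, edgeR), and against LMNB1 by 0.72 ± 0.18 (adjusted p = 0.0401, edgeR). Against GFP the difference was -0.57 ± 0.18 (adjusted p = 0.0895, edgeR). The call against LMNA was lost without LMNA replicate 1 or 3 or any LMNB2 replicate, with adjusted p of up to 0.152 in edgeR, and that against LMNB1 without LMNA replicate 2 or any LMNB1 or LMNB2 replicate, with adjusted p of up to 0.205. Both calls were also lost with total-count scaling (adjusted p = 0.403 against LMNA and 0.520 against LMNB1, edgeR) and without lncRNA intervals (0.0678 and 0.0767). The call against LMNB1 was lost in DESeq2 (adjusted p = 0.0525) and with the replicate number as a block (0.0632, edgeR).

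By anticodon, the medians of LMNB2 against LMNA in small RNA were -0.67 for Leu-AAG, -0.57 for Leu-CAA, -0.55 for Leu-CAG, -0.45 for Leu-TAA and -0.30 for Leu-TAG. Among isoleucine families they were -0.45 for Ile-AAT, -0.68 for Ile-TAT and -1.37 for Ile-GAT. Among valine families they were 0.04 for Val-AAC, 0.03 for Val-CAC and -0.45 for Val-TAC. Families in which introns are known (Leu-CAA and Ile-TAT) had medians next to those of intronless Leu-AAG and Leu-CAG. Leu-CAA is mixed in length, with TRL-CAA5-1 at 74 bp and TRL-CAA6-1 at 84 bp against 105 to 108 bp for the others. Its median was not split by intron. The genes on chromosome 5 had a median of 0.03 (7 of 12 above 0), and those in the chromosome 6 cluster -0.45 (9 of 34 above 0). Those on chromosome 1 were at -0.41 (4 of 17) and those elsewhere at -0.54 (1 of 24). The chromosome 5 genes are mostly Val-AAC and Val-CAC genes, and the rest are Leu-AAG genes. Since all tested leucine genes were below 0, the 7 above 0 there are valine genes. Region and family cannot be told apart in these medians.

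**Figure D3:**
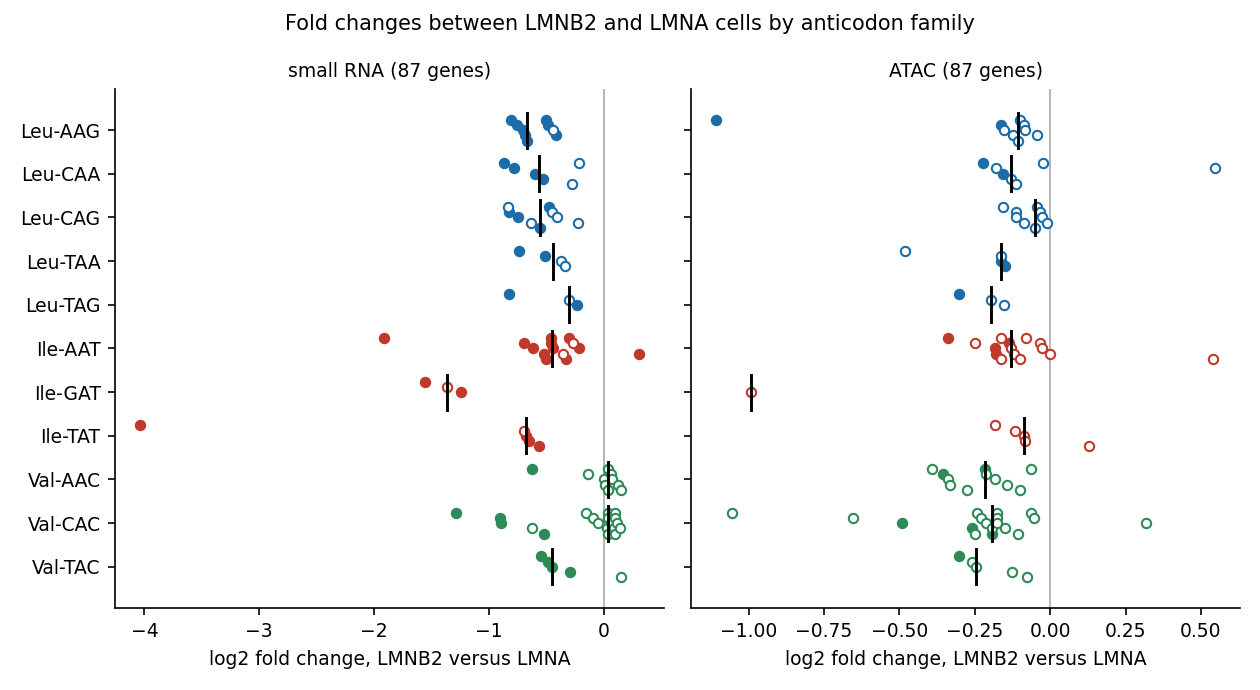
Small RNA and ATAC log2 fold change of each tested gene by anticodon family (filled where the 3 libraries of one group all lie on one side of the other's, open where they overlap, black bar for the family median). In small RNA, the leucine families lie below 0 in LMNB2 against LMNA, from -0.67 for Leu-AAG to -0.30 for Leu-TAG, while Val-AAC and Val-CAC are centred on 0.04 and 0.03.

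The spread of the GFP libraries enters this test although GFP is in neither group. When only the LMNA and LMNB2 libraries were fitted, 32 of 84 tested genes passed, all lower in LMNB2 (38.1%), where 5.28% of all features were lower. They were 15 of 31 leucine genes, 10 of 19 isoleucine genes and 7 of 34 valine genes. The other named isotypes had 126 of 373 genes lower (33.8%) and 1 higher in the same fit. With all libraries but GFP replicate 3, 15 genes passed (7 leucine and 8 isoleucine), where 2.41% of all features were lower. Without GFP replicate 1, 5 genes passed, where 0.464% of all features were lower, and without GFP replicate 2 the number was 2, where 0.268% were.

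Leu-CAA genes were among the genes of higher level whose LMNA and LMNB2 libraries did not overlap. TRL-CAA4-1 (chr1:248873855-248873960, plus strand), its highest gene, measured 90.1, 107 and 167 CPM with GFP, 189, 193 and 161 with LMNA, 158, 142 and 189 with LMNB1, and 102, 96.5 and 98.1 with LMNB2. All LMNA and LMNB1 libraries lie above all LMNB2 libraries, and the GFP libraries reach from below the LMNB2 range into that of LMNA. The difference of LMNB2 from LMNA was -0.87 ± 0.25 (adjusted p = 0.0841, edgeR, all libraries) and -0.89 ± 0.11 with only those libraries fitted (adjusted p = 0.000362). TRL-CAA2-1, another gene of the family, measured 14.0, 16 and 19.1 CPM with GFP, 26.3, 24.9 and 25.6 with LMNA, 19.9, 22.2 and 25.5 with LMNB1, and 14.4, 15.3 and 14.8 with LMNB2. Its difference was -0.78 ± 0.20 (adjusted p = 0.0511, edgeR), and -0.80 ± 0.11 with only those libraries fitted (adjusted p = 0.000806). Summed over the Leu-CAA genes, small RNA was 306, 309 and 297 CPM with LMNA and 187, 172 and 181 with LMNB2, a ratio of means of 1.69.

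Of the highest genes of the other leucine families, TRL-AAG1-2 (chr5:181101840-181101921, plus strand) measured 19.5, 11.3 and 11.9 CPM with GFP, 18.2, 17.2 and 20.2 with LMNA, 13.3, 20.8 and 16.2 with LMNB1, and 13.4, 12.2 and 14.2 with LMNB2. Its LMNB2 libraries lie below its LMNA libraries, and the difference was -0.48 ± 0.24 (adjusted p = 0.328, edgeR) with all libraries and -0.50 ± 0.12 (adjusted p = 0.0155) with only those compared. TRL-TAA4-1 (chr6:27230555-27230637, minus strand) averaged 5.51 ± 0.719 CPM (SD, n = 3) with LMNA and 3.86 ± 0.645 with LMNB2, beside 3.90 ± 1.84 with GFP and 3.93 ± 0.778 with LMNB1, and those LMNA and LMNB2 libraries do not overlap. TRL-CAG1-6 (chr1:161530342-161530424, minus strand) averaged 10.4 ± 1.44 CPM (SD, n = 3) with LMNA and 8.94 ± 1.04 with LMNB2, a difference of -0.22 ± 0.23 (adjusted p = 0.650, edgeR), and these libraries overlap.

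Among the isoleucine genes, TRI-GAT1-1 (chrX:3838377-3838450, minus strand), the highest of its family, measured 0.258, 0.110 and 1.14 CPM with GFP, 0.330, 0.262 and 0.567 with LMNA, 0.181, 0.288 and 0.331 with LMNB1, and 0.187, 0.134 and 0.171 with LMNB2. The LMNB2 libraries lie below the LMNA libraries, and GFP holds both the highest and the lowest value. The difference from LMNA was -1.24 ± 0.78 (adjusted p = 0.472, edgeR) and -1.26 ± 0.29 with only those libraries fitted (adjusted p = 0.0181). TRI-TAT2-2, printed above, measured 1.56, 1.44 and 1.54 CPM with LMNA and 1.04, 0.825 and 0.973 with LMNB2, and differed by -0.69 ± 0.13 with only those libraries fitted (adjusted p = 0.00499, edgeR). TRI-AAT8-1 measured 8.70, 7.48 and 7.51 CPM with LMNA and 5.76, 6.34 and 5.35 with LMNB2. Neither gene had overlap between these groups. In GFP they were highest in replicate 3, at 3.27 CPM for TRI-TAT2-2 and 9.26 CPM for TRI-AAT8-1. The other GFP libraries lay near or below the LMNB2 values in CPM. Before scaling, the GFP libraries held 129, 132 and 581 counts for TRI-TAT2-2 and 537, 734 and 1644 for TRI-AAT8-1.

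**Figure D4:**
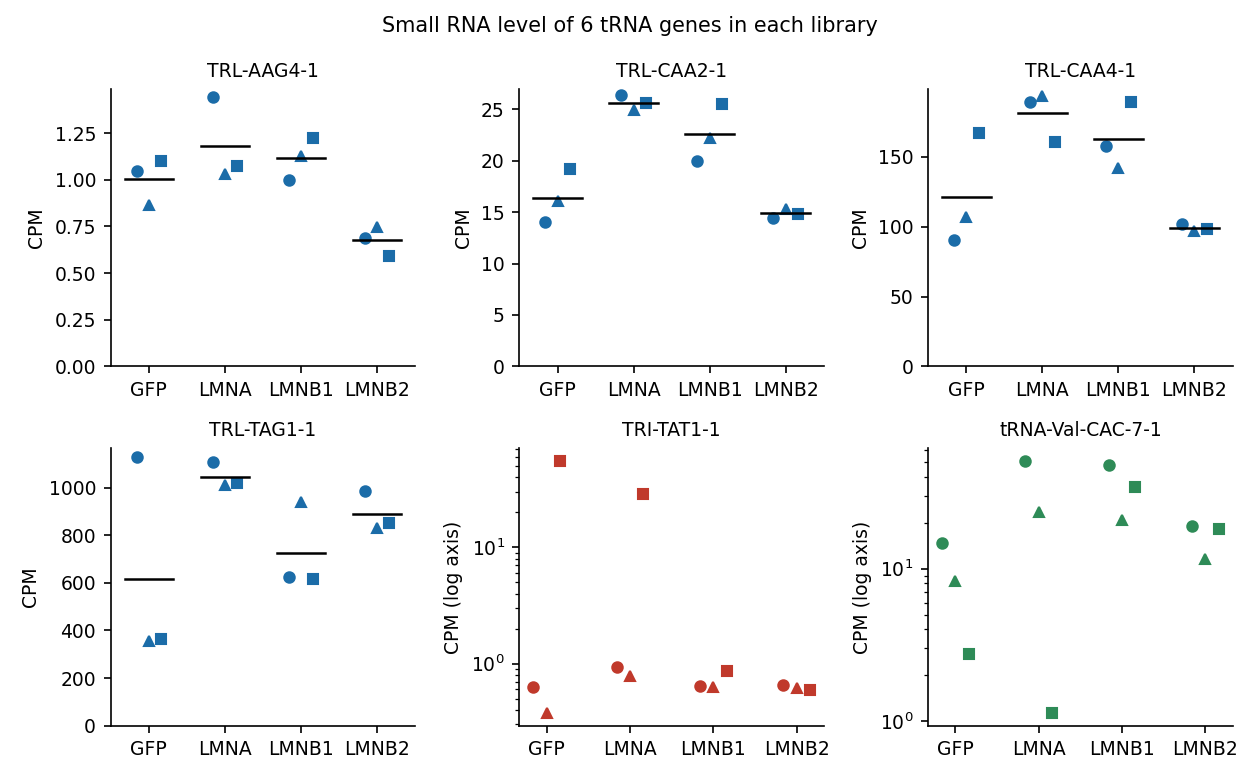
Small RNA level of single genes in each library, in CPM (circle, triangle and square for replicates 1, 2 and 3, black bar for the mean of 3; TRI-TAT1-1 and tRNA-Val-CAC-7-1 on log axes without bars). TRL-AAG4-1 lies between 0.590 and 0.748 CPM with LMNB2, below the other 9 libraries, and TRI-TAT1-1 is at 55.4 CPM in GFP replicate 3 and 28.9 CPM in LMNA replicate 3.

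Against LMNB1, the LMNB2 libraries were lower for all 3 amino acids in the median: -0.28 for leucine, -0.30 for isoleucine and -0.48 for valine. Over the 87 genes the median was -0.36, and 7 genes were above 0, where 49.2% of all features were. TRL-AAG4-1 alone passed the test, where 2.19% of all features were called. For 28 genes (32.2%), all lower in LMNB2, there was no overlap between the groups, against 14.1% of all features. Of the 376 tested genes of other named isotypes, 47.6% were lower without overlap and 5.85% higher. At an unadjusted p under 0.05, 10 genes were lower and 0 higher, against 6.23% and 9.78% of all features. With only these libraries fitted, 21 of 84 genes were lower (25%), where 7.04% of all features were, and 1 was higher, TRI-AAT2-1 (0.33, adjusted p = 0.0479, edgeR). The 21 were 10 of 31 leucine, 7 of 19 isoleucine and 4 of 34 valine genes, beside 153 of 373 genes of the other isotypes (41.0%). Without GFP replicate 3, 8 genes passed, all lower, in the fit of the remaining 11 libraries, where 2.37% of all features were lower.

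Against GFP, the median in LMNB2 was -0.14 over the 87 genes, with -0.29 for leucine (2 of 31 above 0), -0.20 for isoleucine (5 of 22) and -0.01 for valine (16 of 34). Of all features, 46.8% were above 0. With 1 library left out the median of the 87 ranged from -0.44 (without GFP replicate 2) to 0.05 (without GFP replicate 3), so its sign depended on the GFP libraries, and that of the valine genes from -0.44 to 1.17 (the same libraries). TRI-GAT1-2 alone passed the test, where 2.66% of all features were called. At an unadjusted p under 0.05, 13 genes were lower and 2 higher, against 10.4% and 9.58% of all features. For 8 genes, all lower in LMNB2 (9.2% of the 87), the groups had no overlap, against 10.2% of all features, which is about the background. TRI-GAT1-2 is an isoleucine gene at chrX:3876801-3876874 (minus strand) with a mean of 10.6 counts per library. It measured 0.0515, 0.0735 and 0.242 CPM with GFP, 0.0622, 0.0828 and 0.0702 with LMNA, 0.0423, 0.0612 and 0.0348 with LMNB1, and 0.0302, 0.0128 and 0.0284 with LMNB2. GFP replicate 3 is the highest of the 12 libraries for this gene, and the LMNB2 libraries lie below all others. It is 1 of 3 loci with the deposited name tRNA-Ile-GAT-1-1, so their reads may not be separable. The other loci do not show this order. TRI-GAT1-3 held 2 counts in LMNA replicate 1 and 4, 2 and 5 with LMNB2, and TRI-GAT1-1 was lowest in GFP replicate 2. The ATAC window of TRI-GAT1-2 averaged 1.83 counts, with a ratio to its flanks of 0.754. In small RNA TRI-GAT1-2 fell by 2.43 ± 0.58 (log2, SE; adjusted p = 0.0356, edgeR), and by 1.33 without GFP replicate 3, where the call was lost (adjusted p = 0.165, edgeR). With total-count scaling the adjusted p was 0.177 (edgeR). The call was also lost without LMNA replicate 1 or 2 or any LMNB1 or LMNB2 replicate.

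No gene of the 87 was called in LMNA or LMNB1 against GFP by edgeR's quasi-likelihood test, where 0% and 0.0384% of all features were. At an unadjusted p under 0.05, LMNA had 9 genes higher and 0 lower, against 2.83% and 2.63% of all features, and LMNB1 had 3 higher and 1 lower, against 2.23% and 3.28%. DESeq2 called 1 gene higher in LMNA and 0 in LMNB1. The medians were 0.09 in LMNA (52 of 87 above 0) and 0.16 in LMNB1 (57 of 87), where 43.1% and 44.1% of all features were above 0. In LMNB1 the valine genes were at 0.49 (32 of 34 above 0), the leucine genes at -0.03 (14 of 31) and the isoleucine genes at 0.02 (11 of 22). Both medians over the 87 genes lay below 0 without GFP replicate 2, to -0.084 in LMNA and -0.028 in LMNB1, and were highest without GFP replicate 3, at 0.57 and 0.45. Without overlap between the groups were 5 genes higher in LMNA and 2 higher in LMNB1, against 4.16% and 4.76% of all features. TRV-AAC6-1, a valine gene at chr6:28735429-28735500 (minus strand), measured 19.6, 8.36 and 18.4 CPM with GFP and 34.1, 26.3 and 33.3 with LMNA. The LMNA libraries lie above the GFP libraries, and the difference was 1.02 ± 0.32 (adjusted p = 0.882, edgeR).

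The count for LMNA against GFP depended on the GFP libraries left in the fit. Without GFP replicate 3, 7 genes were higher in LMNA, where 0.776% of all features were: TRI-AAT6-1, TRI-AAT8-1, TRI-TAT3-1, TRL-CAA2-1, TRL-CAA4-1, TRV-AAC1-4 and TRV-TAC1-1. Without GFP replicate 1, 3 genes were higher, where 0.0267% of all features were: TRL-TAG1-1, tRNA-Val-CAC-8-1 and TRV-CAC8-1. The lists hold no gene in common, and neither count stands with all 3 GFP libraries.

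LMNB1 against LMNA had no called gene in edgeR, where 0.0118% of all features were called. At an unadjusted p under 0.05, 0 genes were higher and 8 lower, against 2.5% and 3.25% of all features, and DESeq2 called 0. The median was -0.07, from -0.18 for leucine (2 of 31 above 0) and -0.22 for isoleucine (7 of 22) to 0.49 for valine (28 of 34), where 51% of all features were above 0. No overlap was seen for 15 genes lower in LMNB1 and 1 higher, against 7.51% and 6.07% of all features. With only these libraries fitted, 3 genes were lower in LMNB1, namely TRI-AAT2-1, tRNA-Val-CAC-8-1 and TRV-CAC8-1, where 0.316% of all features were.

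The valine level spread more between the GFP libraries than between the means of the groups. Their level in each library, as the median log2 difference from the GFP mean, was -0.22, -1.29 and 1.5 with GFP, 0.76, 0.08 and 0.45 with LMNA, 1.1, 0.62 and 1.12 with LMNB1, and 0.44, -0.42 and 1.08 with LMNB2. The 3 LMNB1 libraries lie within the range of GFP, as do those of the other groups. TRV-AAC2-1 (chr5:181188416-181188488, minus strand), the highest Val-AAC gene, measured 54.7, 33.2 and 243 CPM with GFP, 102, 68.2 and 89.4 with LMNA, 157, 94.9 and 137 with LMNB1, and 81.1, 48.7 and 136 with LMNB2. TRV-CAC2-1 (chr6:27280270-27280342, minus strand), the highest Val-CAC gene, measured 52.1, 24.3 and 200 CPM with GFP, 102, 64.0 and 75.6 with LMNA, 128, 74.2 and 122 with LMNB1, and 71.2, 42.9 and 103 with LMNB2. Replicate 2 is the lowest library of each group for both genes, and GFP replicate 3 is the highest of all. TRV-TAC3-1 (chr10:5853711-5853783, minus strand), the highest Val-TAC gene, did not follow them: it measured 81.1, 58.4 and 46.1 CPM with GFP, 76.2, 103 and 99.8 with LMNA, 75.8, 104 and 85.8 with LMNB1, and 63.6, 69.0 and 71.4 with LMNB2. Its 3 LMNB2 libraries lie below all LMNA and LMNB1 libraries, and GFP replicate 3 is the lowest of the 12.

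A pair of genes stood apart in single libraries of different groups. TRI-TAT1-1 was at 0.375 to 0.940 CPM in 10 libraries, and at 55.4 CPM in GFP replicate 3 and 28.9 CPM in LMNA replicate 3. tRNA-Val-CAC-7-1 (chr6:27728548-27728620, minus strand) was lowest in the same libraries, at 2.75 CPM in GFP replicate 3 and 1.13 CPM in LMNA replicate 3, against 8.32 to 51.0 CPM in the 10 others. The ATAC window of TRI-TAT1-1 lay between 8.86 and 11.1 CPM in all 12 ATAC libraries. Of 5230 features with a mean of at least 100 small RNA counts, 11 were over 10 times every other library in both of these libraries, TRI-TAT1-1 being the only tRNA feature among them.

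In ATAC, the windows on these genes had a lower median in LMNB2 than in each other group, and no window was called. The median log2 fold change over the 87 tested windows was -0.15 against LMNA (5 above 0), -0.13 against LMNB1 (11 above 0) and -0.10 against GFP (9 above 0). The shares of all windows above 0 were 49.4%, 48.6% and 49.1%, and all tested windows had a median of -0.00 against LMNA. Against LMNA the median was -0.12 for leucine, -0.12 for isoleucine and -0.21 for valine genes. edgeR called 0 of the 87 in each of the 6 ATAC comparisons, and DESeq2 also called 0. The shares of all windows called were 0.00305% against LMNA, 0.00305% against LMNB1 and 0.00244% against GFP for LMNB2, 0.000611% for LMNA and 0.00305% for LMNB1 against GFP, and 0.223% for LMNB1 against LMNA. At an unadjusted p under 0.05, LMNB2 had 15 windows lower and 0 higher against LMNA, where 3.61% and 3.56% of all windows were. Against LMNB1 it had 13 lower and 0 higher, where 1.83% and 3.15% were, and against GFP 12 lower and 1 higher, where 2.83% and 2.89% were. LMNA against GFP had 1 higher and 0 lower (all windows 2.82% and 2.37%), LMNB1 against GFP had 0 higher and 0 lower (2.26% and 2.52%), and LMNB1 against LMNA had 0 higher and 1 lower (1.74% and 3.62%). Libraries of the groups were apart for 17 windows lower in LMNB2 than in LMNA, against 8.49% of all windows, for 16 lower than in LMNB1, against 5.24%, with 1 higher, against 6.17%, and for 6 lower than in GFP (6.9% of the 87), against 4.72%. LMNA against GFP had 3 such windows higher and 0 lower, against 4.81% and 4.74% of all windows, with 55 of 87 above 0 where 49.6% of all were. LMNB1 had 2 higher and 2 lower against GFP, against 4.62% and 3.84%, with 51 of 87 above 0 (49.5% of all), and 0 higher and 1 lower against LMNA, against 5.52% and 5.46%, with 32 of 87 above 0 (51.6% of all).

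By library, the ATAC level was -0.13, -0.11 and -0.10 with LMNB2, 0.08, 0.13 and -0.08 with LMNA, 0.09, 0.04 and -0.06 with LMNB1, and 0.10, 0.09 and -0.14 with GFP. GFP replicate 3 lies below the LMNB2 libraries. Mitochondrial counts moved with the groups: they were 24.5 to 30.7% of ATAC counts in LMNB2, 32.8 to 34.1% in LMNB1, 39.4 to 44.1% in LMNA and 39.9 to 47.5% in GFP. With mitochondrial features left out of the fit the median against LMNA was -0.15, and other ways in which this share could enter were not tested. The ratio of window to flanks, which needs no scaling between libraries, had medians of 5.34, 5.48 and 5.29 with LMNB2, 5.97, 5.59 and 5.59 with LMNA, 5.46, 5.79 and 5.44 with LMNB1, and 5.67, 6.04 and 5.61 with GFP. For the 92 genes together, the LMNB2 libraries lie below the LMNA and GFP libraries on this ratio and overlap with LMNB1. The same held for the 407 genes of other named isotypes. Those had medians of 7.26, 7.35 and 7.23 with LMNB2, 7.44, 7.91 and 7.50 with LMNA, and 7.37, 7.74 and 7.47 with GFP. Taken by amino acid, the LMNB2 libraries of the leucine, isoleucine and valine genes do not separate from GFP. Leucine genes had 6.47, 6.09 and 6.44 with LMNB2 and 6.29, 6.80 and 6.02 with GFP. Isoleucine genes had 3.77, 5.55 and 4.23 against 4.67, 5.29 and 3.84, and valine genes 4.02, 5.41 and 4.44 against 4.98, 6.02 and 5.4.

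Single windows of higher level differed little. TRL-CAA1-1 (chr6:28896223-28896328, minus strand), the most accessible Leu-CAA gene, measured 6.40, 6.22 and 5.47 CPM with GFP, 6.01, 5.82 and 5.56 with LMNA, 6.15, 6.37 and 5.67 with LMNB1, and 5.21, 5.41 and 4.95 with LMNB2. The LMNB2 libraries lie below all others, and the difference from GFP was -0.21 ± 0.08 (adjusted p = 0.860, edgeR). TRL-CAA2-1 measured 3.05, 3.18 and 2.68 CPM with GFP and 3.45, 3.43 and 3.26 with LMNA, a difference of 0.18 ± 0.10 (adjusted p = 0.961, edgeR). TRV-CAC1-6 (chr6:26538054-26538126, plus strand) measured 4.19, 4.46 and 3.79 CPM with GFP and 3.68, 3.71 and 3.55 with LMNB1, a difference of -0.18 ± 0.09 (adjusted p = 0.978, edgeR). The window of TRL-AAG4-1, a gene called in small RNA, was a low one with a mean of 20.9 counts. It lay at 0.0400 to 0.159 CPM in all libraries and differed by -1.11 ± 0.43 between LMNB2 and LMNA (adjusted p = 0.611, edgeR). The counts behind this were 20, 15 and 10 with LMNB2 and 23, 28 and 25 with LMNA. Of the 84 genes tested in both assays, 61 were lower in LMNB2 than in LMNA in both. Only 24.14% of the tested genes were above 0 in small RNA and 5.75% in ATAC. Most genes would therefore be lower in both without any relation between the assays. The Spearman correlation of the fold changes across the 84 genes was -0.21.

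Against LMNA, medians below 0 in LMNB2 were also found for tRNA genes of other amino acids. The 376 tested genes of other named isotypes had a small RNA median of -0.41 against LMNA, with 27 above 0, 6 called lower and 226 without overlap lower. Serine and selenocysteine genes, the other type II tRNAs, had a median of -0.46 (0 of 28 above 0). Of 18 other isotypes with at least 5 tested genes, 16 had a median below 0, from -0.98 for alanine to 0.21 for aspartate, so the valine median near 0 lies within the range of the others. In ATAC all 18 had a median below 0, from -0.25 to -0.10. No difference between isotypes was tested. Among 24 features of 18 other RNA polymerase III genes, such as RN7SL, RN7SK, RMRP, vault and Y RNA genes, none was called by edgeR in any comparison, and the median of LMNB2 against LMNA was -0.22 in small RNA (7 above 0, 1 at an unadjusted p under 0.05) and -0.10 in ATAC (4 above 0). Against LMNB1 these genes had a small RNA median of 0.20 (17 of 24 above 0), where the leucine, isoleucine and valine genes were at -0.36. The 24 features were mixed here. They include several entries of U6 genes, all with higher means in LMNB2 than in LMNB1. The first RNU6-1 entry measured 3.19, 2.50 and 3.01 CPM with LMNB2 and 2.29, 2.29 and 2.31 with LMNB1. The vault RNAs and RN7SK went the other way, with VTRNA2-1 at 353, 359 and 429 CPM with LMNB2 and 567, 539 and 842 with LMNB1.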

How the data were processed

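Small RNA and ATAC-seq were measured in HEK293 cells of 4 overexpression groups, 3 libraries each, grouped by the sample titles. The authors deposited raw counts per annotated feature, 1 table per assay, on GRCh38 per the submitters' processing notes. Small RNA intervals extend 25 bp beyond each gene and ATAC windows 125 bp beyond each feature. The flanks start 350 bp outside the window. Aligner, counter, strand, treatment of multi-mapped or duplicate reads, and any ATAC shift are not given in the sources used here, so near-identical copies and overlapping or antisense features can share reads.

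For each assay, edgeR 4.0.16 (R 4.3.3, limma 3.58.1) was run on the counts of its 12 libraries, filtered by filterByExpr and scaled by TMM, with group means as the model and robust quasi-likelihood tests (glmQLFit, glmQLFTest). Of the features, 33893 in small RNA and 163786 in ATAC were tested, with 87 of the 92 genes in each. p-values were Benjamini-Hochberg adjusted over all of them. Log2 CPM used a prior count of 2 and fold changes one of 0.125. SE is the log2 fold change over the root of F. The steps were tested on simulated data. Alternatives were other scaling, filters, feature sets, call rules, DESeq2 1.42.0, a replicate block, only the libraries compared, and each library left out. Named genes are those called, the highest of each family per kb in either assay, and the extremes against GFP among non-overlapping genes at or above the median level. Other genes named, including TRI-TAT2-2, TRI-AAT8-1 and TRL-AAG2-2 (shown for their sequence), were chosen after their values were seen. The genes and lists were chosen with earlier results of these data known. RefSeq symbols were matched base for base to 83 of the 92 intervals, and 9 keep their deposited name. Intervals and errors cover the spread between libraries; reads carry no molecular identifiers.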

Additional observations from a re-analysis of the deposited data

How the results depend on the processing

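No ATAC count of called genes moved from 0 under any alternative tried, including each library left out. In small RNA, the number called with total counts only was 0 in LMNB2 against GFP, LMNA and LMNB1. Without a count filter it was 4 for LMNA against GFP, 8 for LMNB2 against GFP, 3 for LMNB1 against LMNA, 14 for LMNB2 against LMNA and 3 for LMNB2 against LMNB1, and with a mean of at least 10 counts it was 2 for LMNB2 against LMNA. DESeq2 called 1 for LMNA against GFP, 0 for LMNB2 against GFP, 3 for LMNB2 against LMNA and 2 for LMNB2 against LMNB1, TRL-AAG4-1 not among the latter. With only the libraries compared it was 0 for LMNB2 against GFP, 3 for LMNB1 against LMNA, 32 for LMNB2 against LMNA and 22 for LMNB2 against LMNB1. With lncRNA intervals left out it was 0 for LMNB2 against LMNA and against LMNB1, and at an adjusted p under 0.01 it was 0 for LMNB2 against GFP, LMNA and LMNB1, as it was for an added log2 fold change of at least 1 against LMNA and LMNB1. With 1 library left out, the number ranged from 0 to 7 for LMNA against GFP, 0 to 2 for LMNB2 against GFP, 0 to 15 for LMNB2 against LMNA and 0 to 8 for LMNB2 against LMNB1. The highest values came without GFP replicate 3, which also moved the median of LMNA against GFP, whose range was -0.084 to 0.57. With 1 library left out, the medians of LMNB2 against LMNA ranged from -0.55 to -0.38 in small RNA and from -0.21 to -0.12 in ATAC. With total counts only, the small RNA medians were -0.22 for LMNB2 against LMNA (valine 0.24, leucine -0.30, isoleucine -0.32), where the median of all features moved to 0.22, and -0.037 for LMNB2 against GFP, where it moved to 0.21. With total counts only, the ATAC medians were 0.20 for LMNB1 against GFP, 0.017 for LMNB2 against GFP, 0.072 for LMNB1 against LMNA and -0.21 for LMNB2 against LMNB1, and TRV-CAC1-6 in LMNB1 against GFP turned to 0.0077. That scaling moved the median of all windows in LMNB2 against GFP to 0.11, so the genes lay 0.09 below it, as in the TMM fit. The cause of these shifts was not tested, except that fewer or more features or libraries entered the fit.

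With the replicate number as a block, 3 genes were called in LMNB2 against GFP and 0 in LMNB2 against LMNB1, and the other counts did not change. Deviations of same-numbered libraries correlated by -0.041 to 0.234 in small RNA and -0.076 to 0.195 in ATAC, over 0.1 in 2 of 18 pairs each. Those of different-numbered libraries correlated by -0.207 to 0.071 and -0.155 to 0.09. The highest values were thus between same-numbered libraries, and 8 of 12 and 6 of 12 libraries correlated best with their own number. Most of these correlations were low, so the numbers do not establish a pairing, and the values do not exclude one.

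Calls over all small RNA features moved too. LMNB2 against GFP had 901, and 282 with total counts, 1745 without a filter, 21 with only the libraries compared and 145 without lncRNA. LMNB2 against LMNA had 681, then 314, 1232, 3001 and 81 in that order. LMNB2 against LMNB1 had 742, and 61 with total counts, 4638 with only the libraries compared and 72 without lncRNA. LMNA against GFP had 0, 111 without a filter and 70 in DESeq2. LMNB1 against GFP had 13, 127 without a filter, 21 in DESeq2, 6 with only the libraries compared and 1 without lncRNA. LMNB1 against LMNA had 4, then 146, 10, 103 and 1. For LMNB2, totals with the block, in DESeq2 and with a mean of at least 10 counts are not given here. Nor is the total without a filter for LMNB2 against LMNB1. Counts of leucine, isoleucine and valine genes called under those settings therefore have no background beside them. In ATAC, LMNB1 against LMNA had 365 called windows, 6 with total counts, 891 in DESeq2, 1091 with only the libraries compared, 859 with the block and 2 without lncRNA. The 5 other ATAC comparisons had 1 to 5 called windows, and up to 184 with total counts, 116 in DESeq2, 981 with only the libraries compared and 60 with the block. Counts limit low genes such as TRI-GAT1-2 (mean 10.6 counts) most.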

Other observations

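Isodecoder and family shares gave a further description of the small RNA pool. The 92 genes held 18.7, 10.9 and 16.6% of all nuclear tRNA counts in GFP, 20.4, 18.4 and 18.3% with LMNA, 18.7, 19.2 and 18.7% with LMNB1 and 18.9, 16.4 and 19.7% with LMNB2. GFP replicate 2 is the lowest library, and the 11 others lie between 16.4 and 20.4%. The 5 genes with the highest level held 60.2% of the summed CPM of the 92, and the 10 highest held 69.5%.

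Summed by family, Leu-AAG small RNA was 60.5, 36.8 and 47.0 CPM with GFP, 53.7, 49.6 and 66.7 with LMNA, 42.2, 58.7 and 53.7 with LMNB1, and 41.3, 35.4 and 42.5 with LMNB2. All LMNA libraries lie above all LMNB2 libraries. Ile-AAT, the largest isoleucine family, was 51.6, 33.9 and 44.3 CPM with GFP, 56.0, 55.6 and 52.4 with LMNA, 40.0, 47.0 and 45.5 with LMNB1, and 42.6, 44.7 and 40.4 with LMNB2. The LMNA libraries of this family lie above those of every other group. TRI-AAT2-1, its highest gene, measured 27.9, 13.3 and 14.7 CPM with GFP, 24.1, 27.8 and 24 with LMNA, 13.9, 18.8 and 15.6 with LMNB1, and 19.9, 22.5 and 18.0 with LMNB2.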
